A study of Homo sapiens with 18 samples.

Results

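The clustered histone genes are the histone genes that sit together in the HIST1, HIST2 and HIST3 gene clusters of the human genome. Members were the probe sets that name exactly 1 gene whose symbol on the array starts with HIST1H, HIST2H or HIST3H, without pseudogenes. This gave 16 of the 15529 named genes tested: 5 linker histone H1 genes (H1-1, H1-2, H1-3, H1-4 and H1-5), 5 H2A genes (H2AC6, H2AC12, H2AC20, H2AC21 and H2AC25) and 6 H2B genes (H2BC3, H2BC5, H2BC14, H2BC18, H2BC21 and H2BC26). No H3 and no H4 gene had a probe set of its own, so these classes had 0 members each. A further 24 probe sets list several clustered histone genes each, and they are described by class only. The 10 HIST1 members lie on chromosome 6, and the 4 HIST2 and 2 HIST3 members lie on chromosome 1. Each name is the current one for its array symbol, for example H2BC14 for HIST1H2BM, H2AC12 for HIST1H2AH, H2AC20 for HIST2H2AC, H2BC21 for HIST2H2BE, H2BC18 for HIST2H2BF and H2AC25 for HIST3H2A.

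RNA was measured on 18 arrays from U-87MG, an established human glioblastoma line. Cells stably carried either the empty lentiviral vector pLX301 or the same vector with human IL4I1 (pLX301-IL4I1), selected with puromycin. In addition they carried a lentiviral control hairpin (shCtrl) or 1 of 2 hairpins targeting AHR, the aryl hydrocarbon receptor (shAHR#1, here shAHR1, and shAHR#2, here shAHR2), and all were cultured for 120 h. The 6 groups of 3 arrays are called vector or IL4I1 cells with shCtrl, shAHR1 or shAHR2. The 3 replicates are described as independent experiments on stable lines, and the labels do not say whether lines were made more than once, so the spread is between these experiments. IL4I1 encodes an L-amino acid oxidase that cells release. Products it makes from tryptophan can activate AHR, a transcription factor that responds to bound ligands. The comparisons ask whether histone gene levels differed with IL4I1 and whether the difference changed when AHR was knocked down.

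Values are log2 expression after RMA, a normalization that gives all arrays the same distribution, so a fall or rise shared by all transcripts would not be seen. Array medians lay between 6.46 and 6.53, and no pair of arrays held identical values. AHR was lower with each hairpin, by a log2 change of -2.27 ± 0.16 (SE, limma adjusted p 3.22e-06) with shAHR1 and -2.23 ± 0.16 (adjusted p 4.42e-06) with shAHR2 in vector cells. IL4I1 itself rose by 6.87 ± 0.13 over the 3 hairpins (adjusted p 2.96e-15). The 8 markers of the U-87MG line (VIM, NES, CD44, FN1, SPARC, S100A6, ANXA1 and CAV1) had array means of 10.43 to 10.71, and none of them passed the test with IL4I1. Taken singly, their means ran from 6.30 to 12.51 in vector cells and from 6.07 to 12.39 in IL4I1 cells. For leukocyte, endothelial and epithelial markers, 6 of 10 were measured, with array means of 5.62 to 6.45 in vector cells and 6.01 to 6.55 in IL4I1 cells, beside a median of 6.46 over all probe sets. Taken singly, these 6 markers had means of up to 6.71 in vector cells and 7.15 in IL4I1 cells. The highest of them was thus above the lowest marker of the line. None of these 6 markers was called either, although an array has no true zero.

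Histones package DNA into nucleosomes. H2A, H2B, H3 and H4 form the core around which the DNA is wound, and the linker histone H1 binds where the DNA enters and leaves it. Most clustered histone genes are switched on when cells enter S phase, through the co-activator NPAT, and their mRNAs end in a stem-loop bound by SLBP instead of a poly(A) tail. They are degraded when DNA synthesis stops, while replacement histones such as H2AZ1 are made from polyadenylated mRNA through the whole cell cycle. The labelling kit primes along the whole RNA, so that mRNA without a poly(A) tail is also copied.

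The start regions of the members show how the classes differ. RefSeq promoters (GRCh38.p14) were found for 15 of the 16 members, all but H2AC12. The 250 bases before each start were searched on both strands for the letters of 5 motifs. The following 6 stretches of 130 bases before the start are printed because they include the members with the largest falls among those with a promoter entry (H2BC14, H1-1 and H1-5), a pair with smaller falls (H1-4 and H2BC21) and one that was not called (H2BC18). Capitals mark CCAAT, its reverse complement where the box is on the opposite strand, TATAAA, the H1 box AAACACA and the octamer ATTTGCAT. H1-1 is at chr6:26017788-26017917, minus strand. H1-5 is at chr6:27867589-27867718, minus strand. H1-4 is at chr6:26156199-26156328, plus strand. H2BC14 is at chr6:27814892-27815021, plus strand. H2BC21 is at chr1:149886683-149886812, minus strand. H2BC18 is at chr1:149812371-149812500, minus strand.
H1-1: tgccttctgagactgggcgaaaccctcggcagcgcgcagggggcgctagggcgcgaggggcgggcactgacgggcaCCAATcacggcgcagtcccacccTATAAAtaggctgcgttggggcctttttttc
H1-5: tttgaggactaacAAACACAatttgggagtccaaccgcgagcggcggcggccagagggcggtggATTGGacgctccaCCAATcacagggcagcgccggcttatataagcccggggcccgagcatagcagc
H1-4: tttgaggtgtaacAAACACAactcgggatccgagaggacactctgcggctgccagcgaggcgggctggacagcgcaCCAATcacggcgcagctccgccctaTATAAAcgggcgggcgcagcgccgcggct
H2BC14: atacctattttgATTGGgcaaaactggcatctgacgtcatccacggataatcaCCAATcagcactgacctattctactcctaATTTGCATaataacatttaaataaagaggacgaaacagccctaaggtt
H2BC21: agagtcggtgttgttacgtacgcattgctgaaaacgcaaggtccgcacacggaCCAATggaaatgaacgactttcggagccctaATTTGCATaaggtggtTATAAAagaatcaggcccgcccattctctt
H2BC18: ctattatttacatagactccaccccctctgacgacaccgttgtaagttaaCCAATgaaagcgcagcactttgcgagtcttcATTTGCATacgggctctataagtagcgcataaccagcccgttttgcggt

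CCAAT was in all 15 searched promoters, against 33% of 27305 RefSeq promoters searched over the same length. TATAAA was in 10 of the 15, against 11.1% of all promoters. The octamer, the letters bound by the factor POU2F1 (OCT1), was in 4 of 6 H2B and 3 of 4 H2A promoters but in none of the 5 H1 promoters, against 1.66% of all. In H2BC14, H2BC18 and H2BC21 the octamer began 46 to 49 bases before the start, and in H2BC3 it began 120 bases before. In the H2A genes it was on the opposite strand and further away, 130 (H2AC6), 197 (H2AC20) and 208 (H2AC21) bases before the start. The H2AC20 match is the same site as that of H2BC21, because their searched windows overlap, so it was counted in both classes. The H1 box was in all 5 H1 promoters and in no searched H2A or H2B promoter, against 4.95% of all. It began 117 to 119 bases before the start on the same strand in H1-2, H1-3, H1-4 and H1-5, while H1-1 held it 183 bases before the start on the opposite strand. The core letters of the AHR binding site, GCGTG, were in 1 of 15 member promoters (H1-4, 213 bases before the start), against 31.9% of all promoters. These matches describe letters in the window and are no evidence of binding. Beside the expression results, H2BC14 and H2BC18 both had the octamer and CCAAT at similar distances from the start, although H2BC14 fell with IL4I1 and H2BC18 was not called.

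In IL4I1 cells, 11 of the 16 clustered histone genes were lower than in vector cells and none was higher, taking the mean of the IL4I1 differences in the 3 hairpin lines (limma, Benjamini-Hochberg adjusted p under 0.05 over all named genes). Of all tested genes, 7.21% were lower and 5.36% higher by the same rule. With arrays centred on 7 reference genes, the count was 6, without H1-3, H1-4, H2AC20, H2BC21 and H2BC26. The split of all genes turned from 1120 lower and 833 higher to 284 lower and 364 higher. The median of the 7 reference genes, as the deviation from its mean over arrays, ran from -0.86 to 0.52. The median log2 change of the 16 genes was -0.61, beside 0.0056 for all genes. Changes of the 11 called genes ran from -3.12 (8.71-fold lower) for H2BC14 to -0.35 (1.27-fold lower) for H2BC26. Genes of each class with members fell: 4 of 5 H1 genes (class median -0.78), 3 of 5 H2A genes (class median -0.50) and 4 of 6 H2B genes (class median -0.47). By position, 7 of 10 HIST1, 3 of 4 HIST2 and 1 of 2 HIST3 members fell. In 2 genes, H1-1 and H2BC14, every one of the 9 IL4I1 arrays lay below every one of the 9 vector arrays, which held for 1.06% of all genes.

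**Figure D1:**
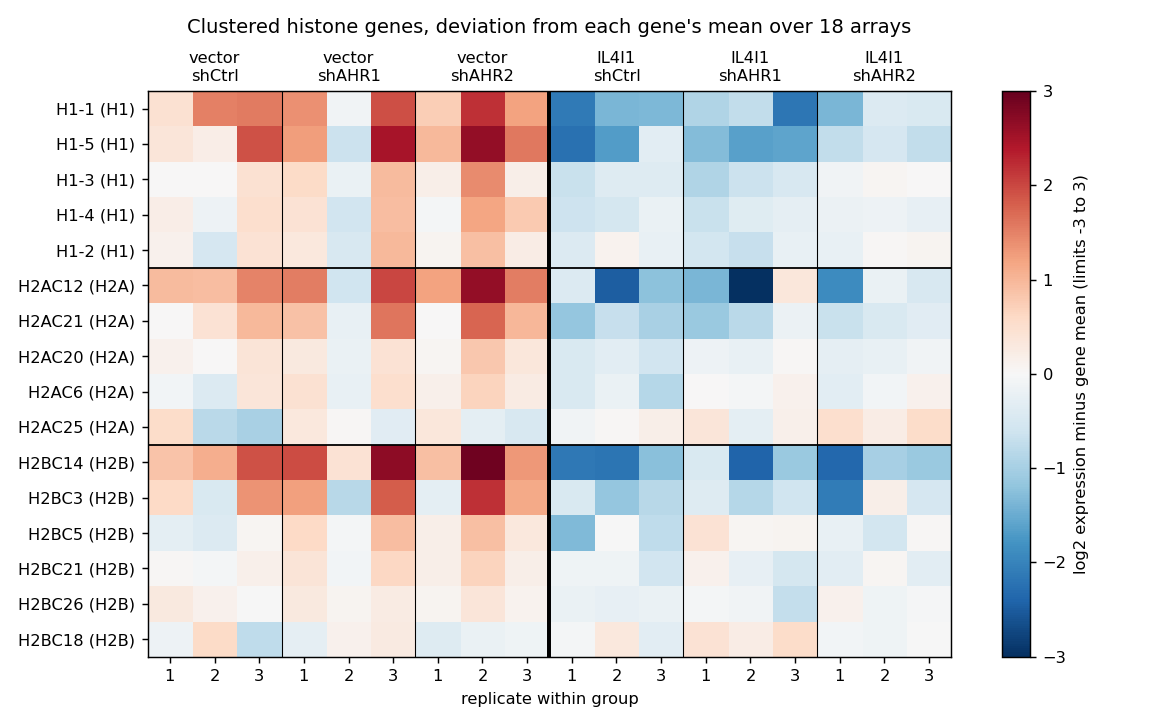
Log2 expression of the 16 clustered histone genes (rows, grouped by class) on the 18 arrays (columns, grouped by vector or IL4I1 and hairpin), as the deviation from each gene's mean over all arrays (colour, log2 units). The 9 IL4I1 arrays on the right are mostly below the gene mean (blue), most deeply in H1-1, H1-5, H2AC12 and H2BC14, while H2AC25 and H2BC18 do not follow this pattern.

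Among the linker histones, H1-1 had log2 values of 6.14, 7.18 and 7.22 in vector cells with shCtrl, 7.04, 5.57 and 7.61 with shAHR1, and 6.41, 7.87 and 6.87 with shAHR2. In IL4I1 cells it had 3.55, 4.31 and 4.33 with shCtrl, 4.77, 4.93 and 3.50 with shAHR1, and 4.30, 5.27 and 5.21 with shAHR2. The 2 sets of 9 arrays did not overlap, although the highest IL4I1 array and the lowest vector array were close. Its log2 change was -2.41 ± 0.30 (SE, limma adjusted p 8.54e-05), which is 5.33-fold lower. H1-5 ranged from 4.58 to 7.88 (median 6.48) in vector cells and from 3.00 to 4.92 (median 3.94) in IL4I1 cells, a change of -2.38 ± 0.38 (adjusted p 0.000545). H1-5 overlapped only through vector shAHR1 replicate 2, its lowest vector array. In IL4I1 cells with shCtrl or shAHR1, the means of H1-1 (4.06 and 4.40) and H1-5 (3.83 and 3.74) were in the lowest 1% of all genes' group means. Whether the low end of the array affected the size of these falls was not tested.

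The other H1 genes changed less. H1-3 had 6.99 to 8.60 (median 7.37) in vector cells and 6.28 to 7.25 (median 6.80) in IL4I1 cells, a log2 change of -0.78 ± 0.18 (limma adjusted p 0.00701, call lost with reference centring). For H1-4, the lowest, median and highest values were 7.62, 8.62 and 9.37 in vector cells and 7.52, 7.93 and 8.05 in IL4I1 cells, a change of -0.72 ± 0.19 (adjusted p 0.0209, call also lost with that centring). Both genes overlapped between the sets of arrays at their lower vector values. H1-2 had 6.84 to 8.33 (median 7.58) in vector cells and 6.65 to 7.44 (median 7.13) in IL4I1 cells. Its difference of -0.47 ± 0.19 did not pass (adjusted p 0.119), and it passed only without vector shAHR1 replicate 2 (-0.59).

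Among the H2A genes, H2AC12 had 7.53, 7.52 and 8.06 in vector cells with shCtrl, and 6.17, 4.11 and 5.35 in IL4I1 cells with shCtrl. Over all hairpins it lay between 5.99 and 9.23 (median 8.06) in vector cells and between 2.62 and 6.93 (median 5.35) in IL4I1 cells. The lowest value, 2.62, was in IL4I1 shAHR1 replicate 2, and the 3 arrays of that group spread from 2.62 to 6.93. Its log2 change was -2.60 ± 0.51 (limma adjusted p 0.00255). H2AC21 lay at 7.87 to 9.86 (median 8.99) in vector cells and 6.96 to 7.94 (median 7.41) in IL4I1 cells, a change of -1.42 ± 0.25 (adjusted p 0.00121). Only 1 vector array, shAHR1 replicate 2, was within the IL4I1 range. H2AC20 had 10.98 to 11.99 (median 11.48) and 10.62 to 11.23 (median 10.95), a change of -0.50 ± 0.11 (adjusted p 0.00757), and its call was lost with reference centring.

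H2AC6 and H2AC25 were not called. H2AC6 had 7.73 to 8.82 (median 8.39) in vector cells and 7.29 to 8.26 (median 8.05) in IL4I1 cells, a difference of -0.38 ± 0.14 (limma adjusted p 0.0895), which passed only without vector shAHR1 replicate 2 (-0.45). H2AC25 was on the other side of 0. It had 4.82 to 6.33 (median 5.49) in vector cells and 5.50 to 6.34 (median 5.96) in IL4I1 cells, a difference of 0.37 ± 0.19 (adjusted p 0.238). Vector shCtrl replicates 2 and 3, at 4.97 and 4.82, were its lowest arrays, and replicate 1 of the same group, at 6.33, was the highest vector array. Without vector shCtrl replicate 1 the difference was 0.53 and was called higher.

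Among the H2B genes, H2BC14 had 7.45, 7.66 and 8.50 in vector cells with shCtrl, 8.55, 7.01 and 9.27 with shAHR1, and 7.48, 9.50 and 7.90 with shAHR2. In IL4I1 cells the values were 4.45, 4.39 and 5.34 with shCtrl, 6.12, 4.18 and 5.48 with shAHR1, and 4.22, 5.58 and 5.46 with shAHR2. Every IL4I1 array was below every vector array. The log2 change was -3.12 ± 0.36 (limma adjusted p 4.91e-05). Its mean in IL4I1 cells with shCtrl was also dim, above 1.84% of all group means, as was that of H2AC12 in IL4I1 cells with shAHR1, above 3.26%. H2BC3 had 5.12 to 8.15 (median 7.11) in vector cells and 3.86 to 6.12 (median 5.35) in IL4I1 cells, a change of -1.50 ± 0.41 (adjusted p 0.0228). Its groups overlapped, and the call was lost without vector shAHR1 replicate 3 (-1.32) or vector shAHR2 replicate 2 (-1.30).

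H2BC21 and H2BC26 fell by small amounts. H2BC21 had 7.60 to 8.37 (median 7.86) in vector cells and 7.11 to 7.83 (median 7.45) in IL4I1 cells, a log2 change of -0.46 ± 0.13 (limma adjusted p 0.0254). For H2BC26, vector cells had 5.80 to 6.15 (median 5.93) and IL4I1 cells 5.08 to 5.93 (median 5.67), a change of -0.35 ± 0.10 (adjusted p 0.0258). These calls sit close to the threshold. That of H2BC21 was lost without any 1 of vector shAHR1 replicate 3 (-0.40), vector shAHR2 replicate 2 (-0.40), IL4I1 shCtrl replicate 3 (-0.41), IL4I1 shAHR1 replicate 3 (-0.40), or IL4I1 shAHR2 replicates 1 and 3 (-0.44 each). That of H2BC26 was lost without vector shAHR1 replicate 1 (-0.34) or 3 (-0.34), vector shAHR2 replicate 2 (-0.32) or IL4I1 shAHR2 replicate 2 (-0.33), and with trend and robust moderation. Reference centring ended both calls.

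H2BC5 and H2BC18 were not called. H2BC5 had 6.05 to 7.38 (median 6.65) in vector cells and 5.14 to 6.90 (median 6.46) in IL4I1 cells, a difference of -0.49 ± 0.18 (limma adjusted p 0.0858). It passed without vector shAHR1 replicate 2 (-0.58) or IL4I1 shCtrl replicate 2 (-0.61). H2BC18 had 5.87 to 7.22 (median 6.48) and 6.32 to 7.19 (median 6.63), a difference of 0.20 ± 0.15 (adjusted p 0.439). With H2AC25 it was 1 of 2 members whose IL4I1 difference was above 0 with each hairpin, while the other 14 were below 0 with each.

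**Figure D2:**
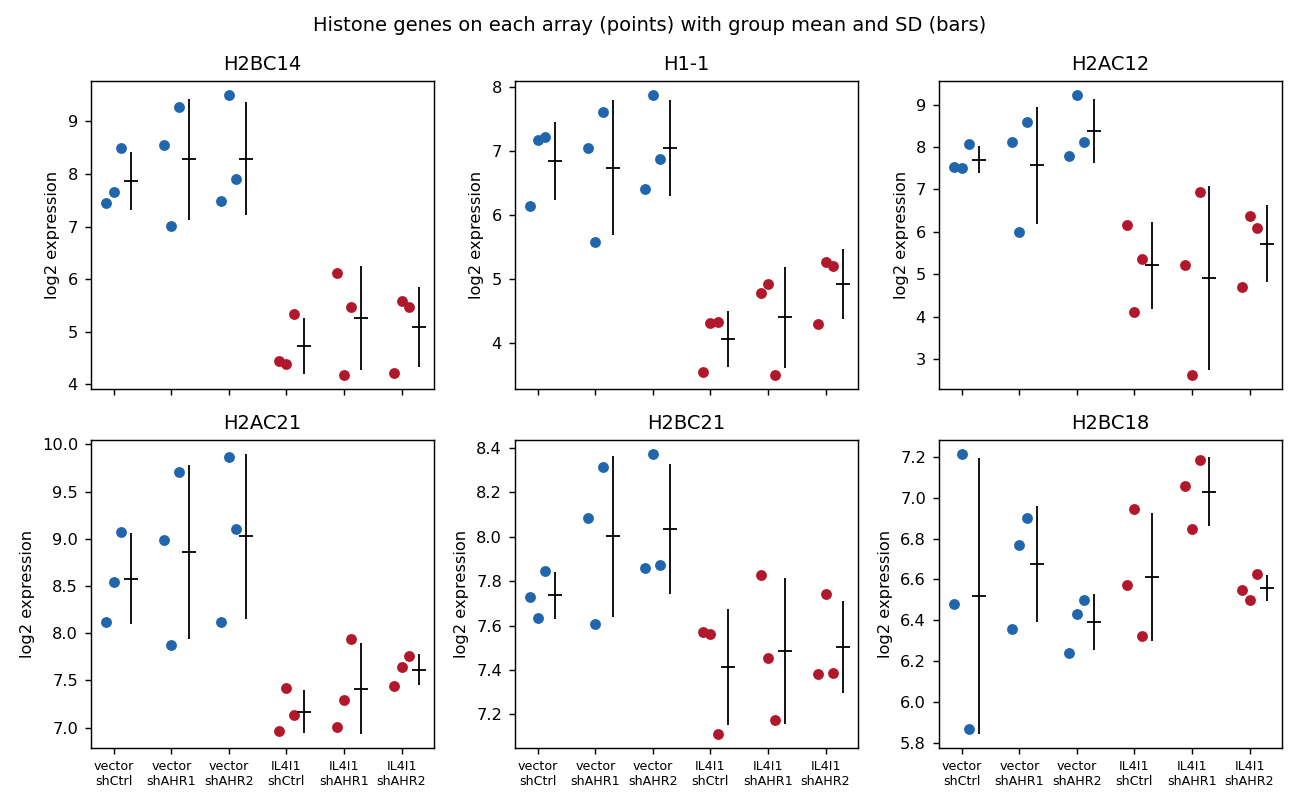
Log2 expression of 6 histone genes on each array (points, blue for vector and red for IL4I1 cells), with the group mean and SD (bars, 3 arrays) for each hairpin. H2BC14 and H1-1 separate fully between the vector and IL4I1 arrays, H2AC12 and H2AC21 overlap at their edges, H2BC21 differs by -0.46 on average, and H2BC18 shows no called difference. The axes differ between genes and do not start at 0.

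Clustered genes that are also known to make polyadenylated mRNA did not stand on the other side of 0. Of the 4 measured (H1-2, H2AC6, H2BC5 and H2BC21, with H2BC12 not measured by a probe set of its own), 1 was called lower, beside 7.21% of all genes, and their median was -0.46. Members that share a start region can be read side by side: H2BC21 and H2AC20 are divergent genes whose starts lie 236 bases apart, and both fell (-0.46 and -0.50). H2AC25 and H2BC26, whose starts are 230 bases apart, had differences of 0.37, not called, and -0.35, called. Of the 2 pseudogenes left out of the members, H2BP1 had -1.02 ± 0.20 (limma adjusted p 0.00304). The other, H2BC20P, had -0.49 ± 0.19 and was not called (adjusted p 0.116).

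Probe sets that list several clustered histone genes were tested among all 18913 probe sets, and they were grouped by class after the annotation had been seen. Of these 24, 21 were lower with IL4I1 and 0 higher, while 6.39% of all probe sets were lower. All 7 H3 probe sets fell, with a median log2 change of -2.08 and a range from -2.78 to -0.77. Of the 9 H4 probe sets, each listing 14 H4 genes, 6 fell, with a median of -0.69 and a range from -1.01 to 0.26. All 4 H2A probe sets (median -1.09), the 1 H2B probe set (-1.65) and the 3 probe sets of mixed classes (median -1.30) fell too. Probe sets of a class can list the same genes, so these counts are not counts of separate genes. Which of the listed genes gave the signal cannot be told apart, and near-identical histone genes may also share probes in the single-gene probe sets.

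In the H3 probe set with the largest fall, chosen after its values were seen, the 9 vector arrays had a lowest, median and highest value of 5.30, 7.86 and 9.09, and the IL4I1 arrays 3.75, 5.02 and 6.01. Its change was -2.78 ± 0.44 (limma adjusted p 0.000523), with overlap of the arrays. In another pair of H3 probe sets, each listing 10 H3 genes, no array overlapped. The same held for 1 H2A and 1 mixed probe set, giving 4 of the 24. The share of all probe sets is not given here, and that of all named genes was 1.06%. Of the H3 pair, 1 had 8.25 to 10.78 in vector cells and 5.66 to 7.86 in IL4I1 cells, a change of -2.47 ± 0.33 (adjusted p 0.000167). Of the H4 probe sets, the largest fall was -1.01 ± 0.17 (adjusted p 0.000701), from 7.77 to 9.02 in vector cells to 6.32 to 7.80 in IL4I1 cells. The H4 probe set on the other side of 0 had a difference of 0.26 ± 0.23 (adjusted p 0.543).

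**Figure D3:**
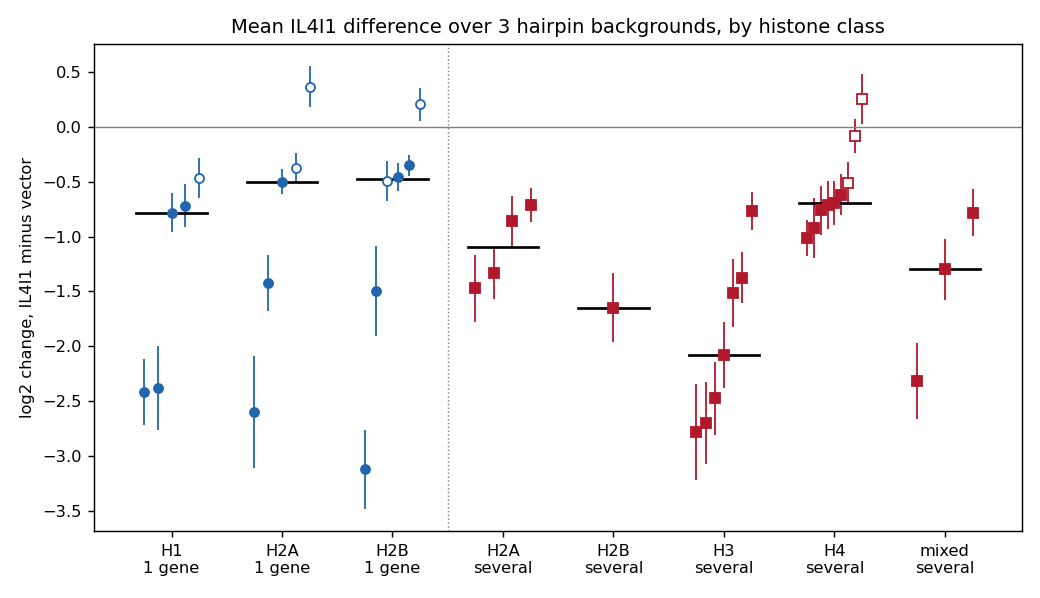
Log2 change with IL4I1 (mean of the 3 hairpin lines) for each single-gene member (blue circles) and each probe set listing several histone genes (red squares), by class, with the SE of the limma fit (bars) and the class median (black lines). Open symbols were not called. The H3 probe sets have the lowest class median, -2.08, and the H4 probe sets lie between -1.01 and 0.26.

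Taken line by line, each comparison had 3 arrays against 3 and a larger error (median SE over all genes 0.22 with shCtrl, beside 0.127 for the mean of the lines). With shCtrl, 2 of the 16 genes were called lower, H1-1 (-2.78 ± 0.52, limma adjusted p 0.00683) and H2BC14 (-3.15 ± 0.63, adjusted p 0.0108), while 2.56% of all genes were lower. In 11 of the 16 genes all 3 IL4I1 arrays lay below all 3 vector arrays, beside 10.9% of all genes. With shAHR1 the same 2 genes were called, H1-1 (-2.34 ± 0.52, adjusted p 0.0393) and H2BC14 (-3.02 ± 0.63, adjusted p 0.0301), where 0.753% of all genes were lower, and 5 of 16 were without overlap (9.87% of all genes). With shAHR2, H2BC14 was called (-3.20 ± 0.63, adjusted p 0.0259) where 0.277% of all genes were lower, and H1-1 had -2.12 ± 0.52 (adjusted p 0.083). There, 12 of 16 genes did not overlap (9.88% of all genes). Unadjusted limma p was under 0.05 in 6, 9 and 10 of the 16 genes with shCtrl, shAHR1 and shAHR2. The shares of all genes under this unadjusted threshold are not given here or below, so such counts cannot be set against them.

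The median differences of the 16 genes in the 3 lines were -0.63, -0.73 and -0.65. Of the H2A genes none was called in a single line, although H2AC12 had -2.49 ± 0.88 with shCtrl, -2.65 ± 0.88 with shAHR1 and -2.66 ± 0.88 with shAHR2 (limma adjusted p 0.125, 0.162 and 0.191). H1-5 had -2.23, -2.52 and -2.39, each ± 0.66 (adjusted p 0.066, 0.0702 and 0.115). Of the 24 probe sets with several genes, 8 were called lower with shCtrl (2.19% of all probe sets), 5 of them among the 7 H3 probe sets. With shAHR1, 1 was called lower (0.682% of all) and with shAHR2, 0 (0.233%). With shAHR2, 20 of the 24 had an unadjusted limma p under 0.05, and the share of all probe sets under it is not given here.

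The calls within a line were few and moved with single arrays. With shCtrl the count was 1 without vector shCtrl replicate 3 or without IL4I1 shCtrl replicate 1, and 4 without vector shAHR1 replicate 2. With shAHR1 it was 0 without vector shAHR1 replicate 1 or 3 or without IL4I1 shAHR1 replicate 2 or 3, and 5 without vector shAHR1 replicate 2. It was 1 without IL4I1 shAHR1 replicate 1, vector shAHR2 replicate 3 or IL4I1 shAHR2 replicate 2 or 3. With shAHR2 it was 0 without vector shAHR2 replicate 2 or 3 or any 1 of the IL4I1 shAHR2 arrays, 3 without vector shAHR2 replicate 1, and 2 without vector shAHR1 replicate 2.

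**Figure D4:**
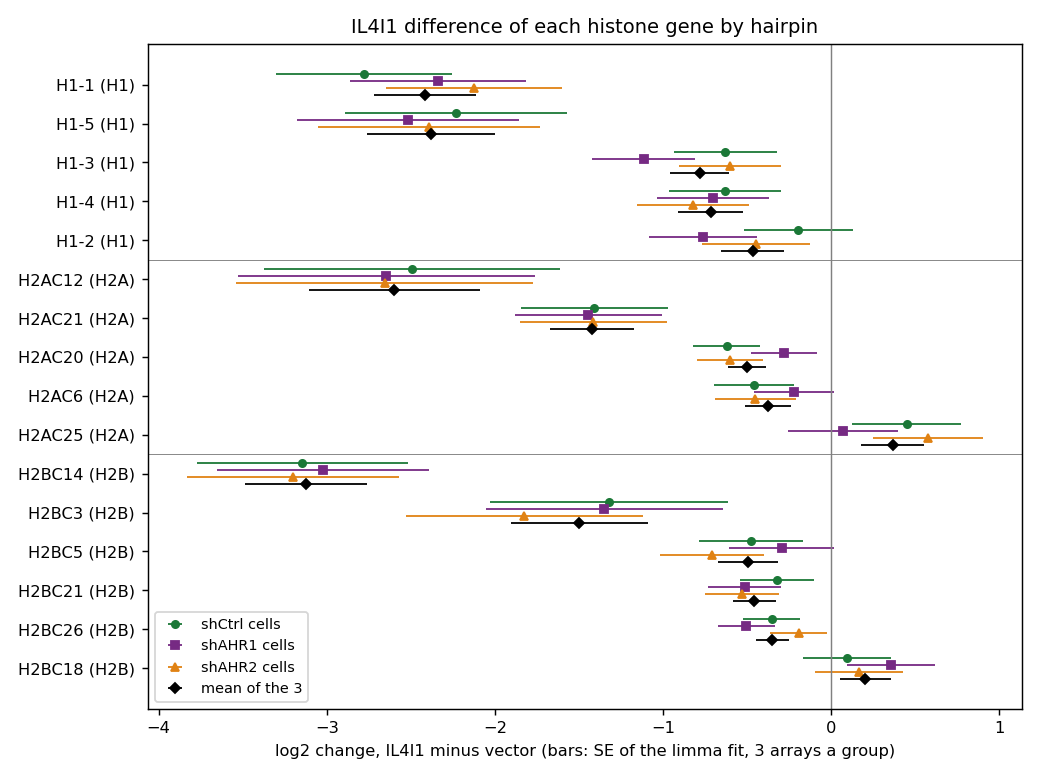
Log2 change with IL4I1 (IL4I1 minus vector) of each histone gene in cells with shCtrl (green), shAHR1 (purple) and shAHR2 (orange) and the mean of the 3 (black), with the SE of the limma fit (bars). The 3 estimates of H2BC14 lie between -3.20 and -3.02, and for every gene the estimates of the 3 lines lie on 1 side of 0.

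Whether AHR knockdown altered the IL4I1 difference was tested directly, as the mean difference in the 2 shAHR lines minus that in shCtrl cells. No histone gene passed and none had an unadjusted p under 0.05, while 3 genes (0.0193% of all tested) passed in the whole table. Estimates ran from -0.41 ± 0.39 for H1-2 to 0.55 ± 0.64 for H1-1, and the estimate was 0.03 ± 0.77 for H2BC14. The SEs, from 0.21 for H2BC26 to 1.08 for H2AC12, bound the precision of this test. In single lines, differences of over 3 SE did not pass the adjusted threshold, so the absence of a call does not show that the IL4I1 difference was equal in the lines. No probe set with several histone genes passed either (0 at an unadjusted p under 0.05, with 0.0106% of all probe sets called lower).

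The hairpins on their own were followed by no called change of a histone gene. In vector cells, 0 of 16 genes passed with shAHR1 (limma, 1 at an unadjusted p under 0.05), where 0.406% of all genes were called in either direction, and 0 of 16 with shAHR2 (1 at an unadjusted p under 0.05), where 0.734% were. In IL4I1 cells the counts were 0 of 16 with shAHR1 (2 at an unadjusted p under 0.05; 1.55% of all genes called) and 0 of 16 with shAHR2 (0 at an unadjusted p under 0.05; 1.26%). Median differences were above 0 in all 4 comparisons, at 0.25 and 0.41 in vector cells and 0.14 and 0.38 in IL4I1 cells. These comparisons share their shCtrl arrays within vector and within IL4I1 cells. 

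H2BC5 had the lowest unadjusted p of the members in the 3 of these 4 comparisons in which any member was under 0.05. Its values were 6.17, 6.05 and 6.51 in vector cells with shCtrl, 7.07, 6.40 and 7.38 with shAHR1, and 6.65, 7.36 and 6.79 with shAHR2. In IL4I1 cells they were 5.14, 6.46 and 5.70 with shCtrl, 6.90, 6.53 and 6.55 with shAHR1, and 6.25, 5.92 and 6.51 with shAHR2. Its difference from shCtrl was 0.71 ± 0.31 (limma adjusted p 0.409) and 0.69 ± 0.31 (adjusted p 0.422) in vector cells, and 0.89 ± 0.31 (adjusted p 0.198) with shAHR1 in IL4I1 cells. None of these differences passed.

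The study design also sets IL4I1 cells with an AHR hairpin against vector cells with shCtrl. In IL4I1 cells with shAHR1, 2 of 16 genes were lower than in that baseline (2.12% of all genes lower), H1-1 by -2.44 ± 0.52 (limma adjusted p 0.0155) and H2BC14 by -2.61 ± 0.63 (adjusted p 0.0267). In IL4I1 cells with shAHR2 only H2BC14 of the 16 was (-2.78 ± 0.63, adjusted p 0.0231), beside 1.19% of all genes, and H1-1 had -1.92 ± 0.52 (adjusted p 0.0565). The count with shAHR1 was 0 without vector shCtrl replicate 2 or 3 and 1 without IL4I1 shAHR1 replicate 2 or 3. That with shAHR2 was 0 without vector shCtrl replicate 2 or 3 or IL4I1 shAHR2 replicate 1 or 3, 3 without vector shCtrl replicate 1, and 2 without vector shAHR1 replicate 2 or 3 or IL4I1 shAHR1 replicate 3.

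The histone genes varied between arrays of the same group. Their median SD within groups was 0.432, beside 0.274 for all genes, and it was highest for H2AC12 (1.24), H2BC3 (0.99) and H1-5 (0.92) and lowest for H2BC26 (0.19). Most pairs deviated together. Over the 18 arrays, the deviations of 2 histone genes from their group means had a median correlation of 0.56 over the 120 pairs, ranging from -0.50 to 0.91, with 92 pairs above 0. The points share arrays, RNA and normalization, so this is a description. H2AC25 and H2BC18 stood apart, with median correlations of -0.17 and -0.10 with the other members.

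The same arrays were high or low in most members. The median deviation of the 16 genes from their overall means ran from -0.21 to 1.05 on the vector arrays and from -0.57 to -0.14 on the IL4I1 arrays. Vector shAHR1 replicate 2 was the lowest vector array, and it alone of the vector arrays was within the range of the IL4I1 arrays. Vector shAHR2 replicate 2 (1.05) and vector shAHR1 replicate 3 (0.94) were the highest arrays. Vector arrays spread from 0.00 to 0.44 with shCtrl, from -0.21 to 0.94 with shAHR1 and from 0.16 to 1.05 with shAHR2. The IL4I1 arrays lay closer together, from -0.57 to -0.35, from -0.51 to -0.24 and from -0.29 to -0.14.

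Genes of the G1/S transition and of DNA replication moved on the same arrays. Of 36 listed genes measured (median log2 change -1.12), 32 were called lower with IL4I1 and 0 higher, beside 7.21% and 5.36% of all genes. Examples are RFC3, a subunit of the clamp loader (-1.34 ± 0.15, limma adjusted p 3.67e-05), MCM3, a subunit of the replicative helicase (-1.52 ± 0.18, adjusted p 6.57e-05), GINS4 (-1.63 ± 0.20) and MCM10 (-1.73 ± 0.23), both helicase factors. Cyclin E1 (CCNE1), which acts with CDK2 at S phase entry, had 0.00 ± 0.10 (adjusted p 0.998). The list's median deviation was 0.08 to 1.00 on the vector arrays and -0.73 to -0.18 on the IL4I1 arrays, without overlap. Within groups, the deviation of H1-1 had a correlation of 0.85 and that of H2BC14 of 0.82 with the list's median over the 18 arrays, and H2AC25 had -0.50. The part of this list's level in the histone result was not tested. No gene of the list was called with a hairpin alone, where 0.406% to 1.55% of all genes were called in either direction.

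**Figure D5:**
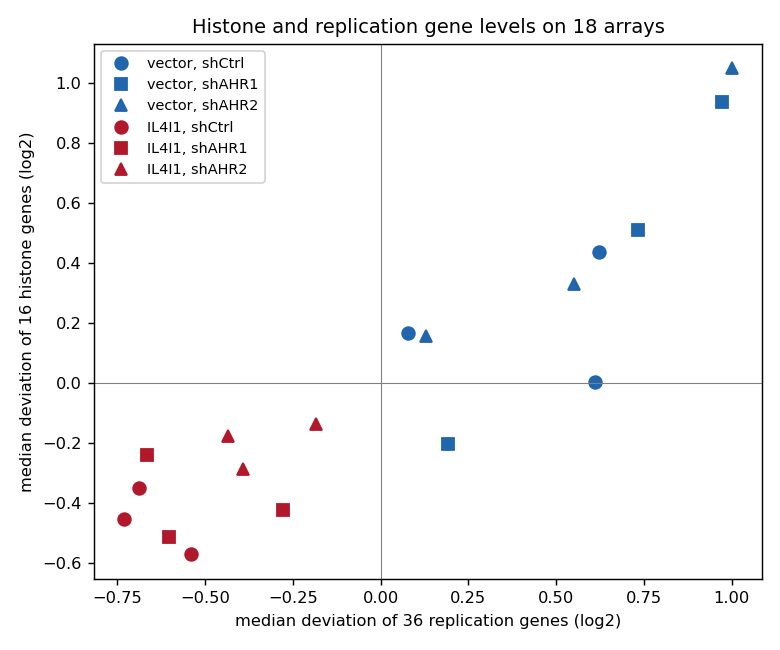
Median deviation of the 16 histone genes (vertical axis, log2) against that of 36 G1/S and replication genes (horizontal axis, log2) on the 18 arrays, as deviations from each gene's mean over all arrays. Vector arrays (blue) lie between 0.08 and 1.00 on the horizontal axis and IL4I1 arrays (red) between -0.73 and -0.18, and marker shapes give the hairpin.

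Factors that act on histones and their mRNA were read from lists as well. Of 21 measured histone chaperones and deposition factors, 7 were lower with IL4I1 and 0 higher (list median -0.30), beside 7.21% of all genes lower and 5.36% higher. The largest falls were in ASF1B, a chaperone that passes H3 and H4 to the replication machinery (-1.79 ± 0.30, limma adjusted p 0.000798), and HJURP, which deposits the centromeric histone CENPA (-1.71 ± 0.30, adjusted p 0.00101). MMS22L, a replication fork repair factor (-1.18 ± 0.18), and CHAF1A, the large subunit of the chromatin assembly factor CAF-1 (-0.99 ± 0.15), followed, and NASP, DNAJC9 and HAT1 were also called lower. ASF1A, the paralogue of ASF1B, had -0.09 ± 0.10 (adjusted p 0.657). The factors that deposit replacement H3 outside replication were not called either: HIRA, UBN1 and CABIN1 of one complex had differences of -0.12, -0.03 and -0.20, and DAXX and ATRX of another had -0.02 and -0.30 (adjusted p 0.0506 for ATRX).

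Of the 19 factors of histone mRNA transcription, 3′ end formation and decay, 4 were lower and 0 higher (list median -0.15), beside 7.21% of all genes lower and 5.36% higher. CASP8AP2 (FLASH), which is needed at the nuclear histone locus bodies for transcription and 3′ processing, fell by 0.36 on the log2 scale (SE 0.08, limma adjusted p 0.00472). The exonuclease ERI1, which trims the histone stem-loop, had -0.43 ± 0.11 (adjusted p 0.0179), and the cleavage factors CPSF3 and CSTF2 each had -0.47 (adjusted p 0.0187 and 0.0214). SLBP had -0.24 ± 0.14 (adjusted p 0.295) and NPAT -0.31 ± 0.11 (adjusted p 0.0657), neither called. In shCtrl cells taken alone, 1 of the 19 genes of this list (CASP8AP2) and 1 of the 21 chaperones (MMS22L) were called lower, beside 2.56% of all genes.

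Listed histone genes outside the clusters moved in both directions. Their timing in the cell cycle was not measured here. Of 8 measured, H2AZ2 (-0.69 ± 0.15, limma adjusted p 0.00599) and H2AZ1 (-0.48 ± 0.13, adjusted p 0.0282), the genes of the variant H2A.Z, fell, while the linker histone H1-10 rose (0.35 ± 0.09, adjusted p 0.0143). Over all genes, 7.21% were called lower and 5.36% higher. H1-10 had 6.74 to 7.50 (median 7.35) in vector cells and 7.50 to 7.81 (median 7.57) in IL4I1 cells. Every IL4I1 array was above every vector array, by a margin that disappears on rounding. The share of all genes separated in this direction is not given here. H2AX, the variant phosphorylated at DNA breaks (-0.53 ± 0.17, adjusted p 0.0536), and CENPA (-0.79 ± 0.26, adjusted p 0.0603) were not called, and MACROH2A1, MACROH2A2 and H2AJ had differences of -0.13, 0.16 and -0.07.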

How the data were processed

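The authors deposited 1 table of 18 single-colour arrays with log2 expression for each probe set, made with RMA in oligo, per the submitters' processing notes, from biotin-labelled cDNA of 100 ng of total RNA per the labels' protocols. Tool versions and the array build: not given in the sources used here. Of 18913 probe sets, 15598 list 1 symbol, 870 several and 2445 are unnamed here. Updating 1173 symbols through RefSeq left 15529 genes. For the 66 genes with several probe sets, only the brightest probe set by average level was used. limma 3.58.1 (R 4.3.3) fitted 1 mean per group over the 18 arrays, with moderated tests and Benjamini-Hochberg adjustment over all named genes, called at 0.05, and was tested on simulated data. The number of arrays limits the precision. Members and lists were chosen with earlier results of these data known. Values were printed for the members, AHR and IL4I1, and up to 4 genes of lowest adjusted p per other list, with further genes of these lists chosen after their values were seen. Replicate numbers gave correlations above 0.1 in every pair only between shAHR1 and shCtrl vector cells (0.162, 0.18 and 0.249), where the replicate block gave 0 called members, as without it. Alternatives were trend and robust moderation, no dim genes, a change of at least 1, array weights, centring on 7 reference genes, groups compared alone, a replicate block and leaving out each array.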

Additional observations from a re-analysis of the deposited data

How the results depend on the processing

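The count of 11 histone genes lower with IL4I1 over the 3 lines was 6 when a log2 change of at least 1 was required and 6 when arrays were centred on 7 reference genes, and 8 to 14 when 1 array was left out. Reference centring moved the median of all genes to 0.10 in this comparison and the split of all genes from 1120 lower and 833 higher to 284 lower and 364 higher. In single lines it moved the median of all genes to 0.42 with shAHR1 and -0.27 with shAHR2. The reference level was lowest on IL4I1 shAHR1 replicate 1 (-0.86) and highest on IL4I1 shAHR2 replicate 1 (0.52). Under this centring H1-3 (-0.68), H1-4 (-0.62), H2AC20 (-0.40), H2BC21 (-0.36) and H2BC26 (-0.25) lost their calls and kept their direction. The median of the 16 genes (-0.61) was -0.51 under this centring and -0.72 to -0.53 with 1 array left out. The shCtrl count of 2 was 1 to 4 with 1 array left out. The shAHR1 count of 2 was 0 with its groups compared alone, 1 with reference centring and 0 to 5 with 1 array left out. The shAHR2 count of 1 was 0 with its groups alone, 2 with trend and robust moderation, 4 with array weights and 0 to 3 with 1 array left out. Against vector shCtrl cells, the shAHR1 count of 2 was 0 to 3 with 1 array left out, and the shAHR2 count of 1 was 2 with trend and robust moderation, 2 without dim genes and 0 to 3 with 1 array left out. Counts for the hairpins alone and for the interaction were 0 under every alternative run. No direction reversed among the results recomputed. With the replicate number as a block, the counts were 11 over the 3 lines, 3 with shCtrl, 3 with shAHR1 and 1 with shAHR2. Deviations of same-numbered arrays had correlations above 0.1 in every pair in 1 of 9 comparisons of 2 groups. Arrays of unlike number were not set beside these, so whether the numbers pair the samples was not tested. H2BC26 also lost its call with trend and robust moderation (-0.35). With 3 arrays a group, single lines detected only large changes: H1-1 with shAHR2, at -2.12 with an SE of 0.52, did not pass. The group means of H1-1 and H1-5 in the lowest 1% are dim, and an effect of this on their falls was not tested. The causes of these shifts were not tested.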
